A study of Mus musculus with 60 samples.

Results

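The 7 genes *Egr1*, *Egr2*, *Egr3*, *Egr4*, *Nr4a1*, *Nr4a2* and *Nr4a3* were examined in mouse hippocampus after a single injection of an NMDA receptor antagonist. They were chosen by symbol, and the platform annotation gave them 10 of the 45281 probes on the array, out of 19057 genes with at least 1 probe. The hippocampal part of the study used 60 Illumina MouseWG-6 v2 arrays that fall into 20 groups, each with 3 arrays. Male C57BL/6J mice aged 8 to 10 weeks received ketamine at 20 mg/kg, memantine at 15 mg/kg, phencyclidine (PCP) at 5 mg/kg or saline, all by intraperitoneal injection, or were left naive, and tissue was taken at 1, 2, 4 and 8 h. The 4 saline groups and 4 naive groups were the controls of each time point, and no group carried a transgene or deletion. Each array held the pooled RNA of 2 mice, so the spread between the 3 arrays of a group is the spread between pools.

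The Egr proteins are zinc finger transcription factors that bind a GC-rich element, and the Nr4a proteins are orphan nuclear receptors that bind DNA without a known natural ligand. Both families are immediate early genes. Calcium entry through NMDA receptors and voltage-gated channels activates MAP kinases and calcium-dependent kinases, which act on serum response factor at CArG boxes and on CREB at cAMP response elements, and the genes are then transcribed within minutes without new protein synthesis. In the hippocampus *Egr1* (also Zif268) is known for its part in long-term potentiation and memory, and the Nr4a family for memory consolidation. Elsewhere *Egr2* (also Krox20) is known for hindbrain and Schwann cell development, *Egr3* for muscle spindle formation and *Nr4a2* (also Nurr1) for dopamine neurons.

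All levels are log2 values after background correction and quantile normalization. They rank arrays for 1 probe and do not rank genes. The probe of *Egr1* (ILMN_2662926) was brighter than 99.1% of all probes on average. The brightest probe of *Egr3* (ILMN_1227494) was brighter than 97.5%, that of *Egr4* (ILMN_1215713) than 91.7%, that of *Nr4a2* (ILMN_1254547) than 82.9%, and that of *Egr2* (ILMN_2623983) than 70.7%. The dim end held *Nr4a1* (ILMN_2701881), brighter than 22.4% of the probes, the second *Egr3* probe (ILMN_2653543, 56.9%) and the 3 *Nr4a3* probes (ILMN_1257794, ILMN_1233670 and ILMN_2666945, at 57.3%, 48.2% and 31.9%). All probes were tested with no filter, and with no detection p-values used here, a level at the dim end can be largely background.

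Of the 60 arrays, 7 on 2 slides had a compressed range of intensity, with a 95th percentile 4.28 to 7.75 times their 5th percentile, against 12.3 to 32.1 times on the other 53. These 7 lay in 7 different groups. They were 1 array each of memantine 8 h, PCP 1, 4 and 8 h, saline 2 and 4 h and naive 8 h. The saline array of 2 h enters every comparison of a drug with saline at 2 h. A slide here is a block of 6 arrays in the order of listing, as no label named the slide. No 2 arrays held identical values. The hippocampal markers *Prox1*, *Wfs1*, *Zbtb20*, *Slc17a7* and *Grik4* were each brighter than at least 74.5% of the probes, while *Neurod6* was brighter than 47.7%. Summed over 4 striatum markers, the log2 level reached 13.81 on a ketamine array of 2 h. It was at most 10.94 in the other groups. The lowest such sum of the hippocampal markers, 13.46, was also in this ketamine group. Summed over 4 thalamus markers, the log2 level reached 11.51 on a memantine array of 1 h, against at most 10.72 in the other groups. Whether striatal or thalamic tissue was in these arrays was not tested.

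Promoter sequence is shown for *Egr2* and *Egr4*, whose levels differed most with drug and time, and for *Nr4a3*, for which 1 of 3 probes was called. Each is the 250 bases before the annotated start in the RefSeq annotation of GRCm38.p6, read in the direction of transcription. Capitals mark the core of the cAMP response element, TGACG on either strand (CGTCA on the other), and the CArG box.

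Egr2 promoter, chr10:67537619-67537868, plus strand: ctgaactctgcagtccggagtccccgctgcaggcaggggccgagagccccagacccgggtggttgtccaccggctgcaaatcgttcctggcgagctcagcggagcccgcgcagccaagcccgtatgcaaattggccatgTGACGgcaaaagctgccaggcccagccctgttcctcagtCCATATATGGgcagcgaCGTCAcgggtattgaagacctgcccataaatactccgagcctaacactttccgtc

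Egr4 promoter, chr6:85513590-85513839, minus strand: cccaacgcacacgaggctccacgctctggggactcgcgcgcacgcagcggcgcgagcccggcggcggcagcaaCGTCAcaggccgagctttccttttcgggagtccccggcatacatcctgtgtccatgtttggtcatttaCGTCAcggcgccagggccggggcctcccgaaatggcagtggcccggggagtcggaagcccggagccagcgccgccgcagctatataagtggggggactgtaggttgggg

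Nr4a3 promoter, chr4:48045055-48045304, plus strand: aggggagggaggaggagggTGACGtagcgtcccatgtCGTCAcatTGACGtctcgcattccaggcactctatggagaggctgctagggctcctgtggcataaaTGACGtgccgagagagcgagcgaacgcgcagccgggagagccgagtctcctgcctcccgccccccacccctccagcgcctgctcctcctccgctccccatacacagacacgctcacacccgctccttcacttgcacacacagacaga

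The *Egr2* window, the third of 5 starts listed for this gene, held 2 TGACG cores and 1 CArG box. The *Egr4* window held 2 TGACG cores and no CArG box, and the *Nr4a3* window held 4 TGACG cores, as did those of *Nr4a1* and *Nr4a2*. Among 32851 promoter windows of the same length, 17.8% held at least 1 TGACG core, 3.9% at least 2 and 0.688% at least 3, while 1.47% held a CArG box. The full element TGACGTCA, which 1.55% of the windows held, was in none of the 5 member windows. GCGNGGGCG, the Egr element, occurred once in each of the *Nr4a1* and *Nr4a2* windows, against 4.7% of all windows with at least 1. AAAGGTCA, the element of Nr4a monomers, was in none of them (1.34% of all windows). Both strands were searched, and a match only describes these letters.

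The clearest drug difference of the 7 genes was that of *Egr4*, which rose 2 h after memantine. It stood at 11.68, 11.45 and 11.30 on the 3 memantine arrays, against 10.77, 10.16 and 10.42 on the saline arrays of 2 h. Every memantine array was above every saline array. The difference was 1.03 on the log2 scale (SE 0.17, 95% interval 0.69 to 1.36), a 2.04-fold change, with an adjusted p of 0.00119 (limma, Benjamini-Hochberg over all probes). This was the sole member probe called in that comparison, where 0.0552% of all probes were called, and 6.42% of all probes were higher with no overlap between the groups. In bulk tissue a change in the number of cells that carry a transcript and a change in the transcript per cell cannot be told apart.

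*Egr2* was next to it. After memantine it read 8.47, 8.88 and 8.94 at 2 h, against 8.08, 7.64 and 7.76 after saline. The groups did not overlap, as for *Egr4*, but the difference of 0.94 (SE 0.23) had an adjusted p of 0.0886 (limma) and was not called. It passed without the first saline array of 2 h (difference 1.07, adjusted p = 0.0274) or without the third memantine array of 8 h (adjusted p = 0.049). At 1 h *Egr2* read 9.34, 8.48 and 9.28 after memantine, against 8.45, 8.34 and 7.89 after saline. The second of these memantine arrays was barely above the highest saline array (3.33% of all probes were higher with no overlap at 1 h), and the difference of 0.81 (SE 0.23) was not called (adjusted p = 1.00, limma). In the fit with slide as a block the *Egr4* difference at 2 h was 0.91 and lost its call (adjusted p = 0.0743), and no slide held both memantine and saline arrays of 2 h.

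**Figure D1:**
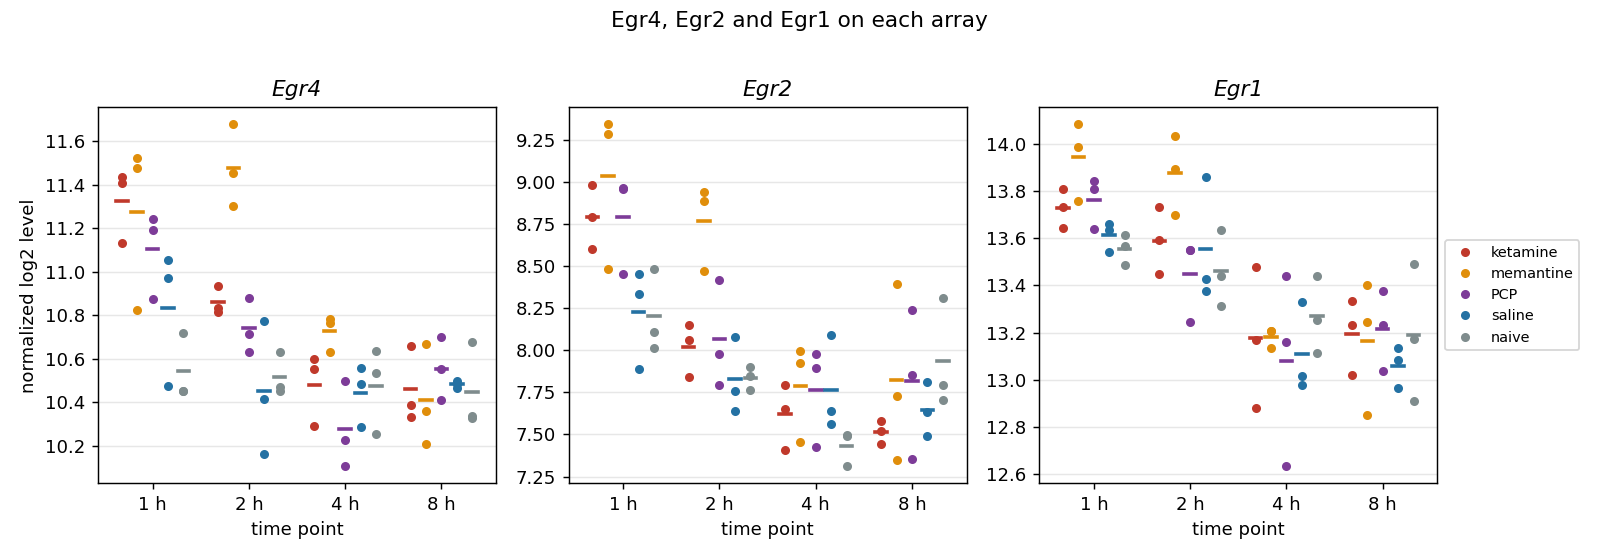
Normalized log2 level (y axis) of *Egr4*, *Egr2* and *Egr1* at 1, 2, 4 and 8 h (x axis). Points are arrays, bars are means of 3 arrays, and colours are the 5 treatments. The 3 memantine arrays of 2 h lie at 11.30 to 11.68 for *Egr4*, above the 3 saline arrays at 10.16 to 10.77.

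*Egr1* showed the same order of memantine and saline means at 1 and 2 h with smaller differences. At 1 h it read 14.08, 13.76 and 13.99 after memantine, against 13.66, 13.54 and 13.64 after saline, with no overlap. At 2 h it read 13.70, 13.89 and 14.03 after memantine, against 13.86, 13.38 and 13.43 after saline, and there the highest saline array lay inside the memantine range. The differences were 0.33 and 0.32 (SE 0.17 each), and neither was called. The memantine arrays of 1 h, for *Egr1* as for *Egr2*, include the one with high thalamus markers.

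After ketamine the differences of *Egr4* and *Egr2* from saline had their largest estimates at 1 h. *Egr4* read 11.43, 11.13 and 11.41 after ketamine, against 11.05, 10.47 and 10.97 after saline, a difference of 0.49 (SE 0.17, 95% interval 0.16 to 0.82). *Egr2* read 8.79, 8.60 and 8.98 after ketamine, against 8.45, 8.34 and 7.89 after saline, a difference of 0.56 (SE 0.23, 95% interval 0.11 to 1.02). Neither pair of groups overlapped, as for 5.19% of all probes that were higher at 1 h, and neither was called (adjusted p = 1.00 for both, limma). At 2 h *Egr4* was still apart, at 10.94, 10.82 and 10.83 after ketamine, against 10.77, 10.16 and 10.42 after saline (difference 0.41, adjusted p = 0.661), as were 5.36% of all probes. These ketamine arrays include the one with high striatum markers (summed log2 level 13.81).

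After PCP, *Egr2* at 1 h read 8.97, 8.96 and 8.45, against 8.45, 8.34 and 7.89 after saline. The lowest PCP array lay only just above the highest saline array (4.61% of all probes were higher with no overlap), and the difference of 0.57 (SE 0.23) was not called (adjusted p = 0.996, limma). *Nr4a2* at 2 h read 9.64, 9.41 and 9.56 after PCP, against 9.29, 9.03 and 8.71 after saline. These groups did not overlap, as for 6.27% of all probes, and the difference of 0.53 (SE 0.17, 95% interval 0.19 to 0.87) was not called (adjusted p = 0.375). *Nr4a2* read 9.19, 9.31 and 9.55 in naive mice of 2 h, of which the upper 2 were also above the highest saline array. The saline array of 2 h at 8.71 for *Nr4a2* and the PCP array of 1 h at 8.97 for *Egr2* each had a compressed range.

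**Figure D2:**
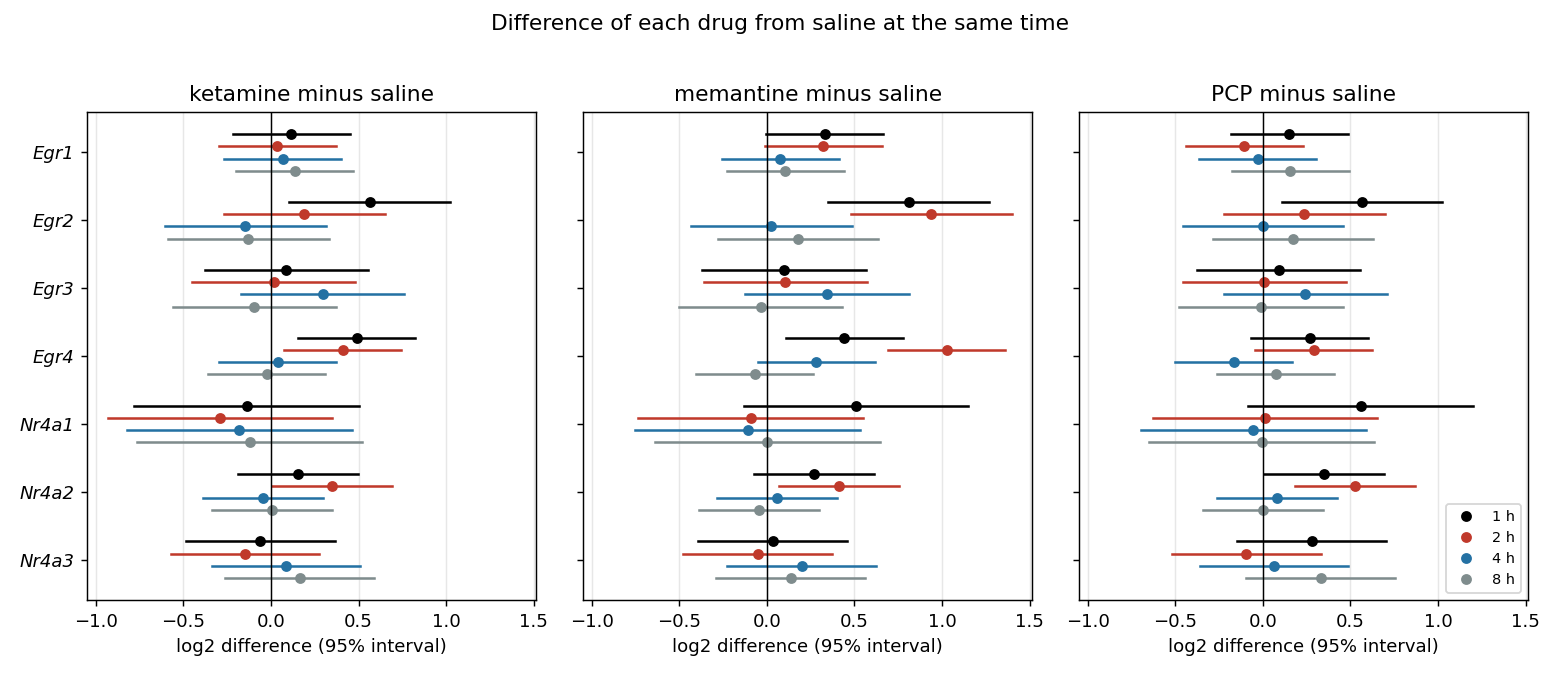
Log2 difference (x axis) of ketamine, memantine and PCP from saline at the same time, for the brightest probe of each gene (y axis). Points are estimates, bars are 95% intervals, and colours are times. The interval of *Egr4* 2 h after memantine, 0.69 to 1.36, is the one that goes with a call.

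In the other 11 of the 12 comparisons of a drug with saline at a single time, no member probe was called. The share of all probes called there was 0.00442% for ketamine at 1 h, 0.0133% for memantine at 4 h, 0.00221% for PCP at 4 h and 0% in the rest. Averaged over the 4 times, *Egr4* was 0.42 higher after memantine than after saline (SE 0.10) and *Egr2* 0.49 higher (SE 0.13), with adjusted p of 0.440 and 0.712 (limma). With all 60 arrays in the fit, in place of the 24 of memantine and saline, *Egr4* was called (adjusted p = 0.0159). After ketamine *Egr4* was 0.23 higher over the 4 times (SE 0.08, adjusted p = 0.754), and after PCP *Nr4a2* and *Egr2* were each 0.24 higher (SE 0.09 and 0.11, adjusted p = 1.00 for both). No member was called over the 4 times, against 0.0243% of all probes for memantine and 0.00221% each for ketamine and PCP. The median difference of the 10 probes over the 4 times was 0.09 for ketamine, 0.11 for memantine and 0.13 for PCP, against 0.00 over all probes for each drug. All these comparisons of a time point share the same 3 saline arrays. *Egr4* and *Egr2* were among the genes the study listed under memantine from these arrays, so these values are not independent evidence. The study's list rested on a nominal p of a two-way ANOVA with a limit on fold change, a rule unlike the adjusted p used here.

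The 3 drugs block the same receptor channel, ketamine and PCP as arylcyclohexylamines and memantine as an adamantane amine, and they were given at different doses, so their values stand side by side only. At 2 h *Egr4* read 10.94, 10.82 and 10.83 after ketamine, 11.68, 11.45 and 11.30 after memantine, and 10.88, 10.72 and 10.63 after PCP. The memantine arrays were all above those of both other drugs at that time, as for 4.44% of all probes against ketamine and 3.94% against PCP. Memantine minus PCP was 0.73 (95% interval 0.40 to 1.07, adjusted p = 0.619) and memantine minus ketamine was 0.61 (95% interval 0.28 to 0.95, adjusted p = 1.00, limma). The ketamine arrays of 2 h include the one with high striatum markers. At 1 h the *Egr4* arrays of the 3 drugs overlapped. No member probe was called in the 12 comparisons between drugs at single times, where at most 0.00221% of all probes were called. The interaction of drug and time was called for no probe on the array (0% of all probes), and for *Egr4* its adjusted p was 1.00.

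The injection itself was tested with saline against naive mice of the same time. No member was called at any of the 4 times or over the 4 times, against 0% of all probes at 1, 4 and 8 h, 0.00442% at 2 h and 0.00221% over the 4 times. At 1 h *Egr4* read 11.05, 10.47 and 10.97 after saline, against 10.45, 10.72 and 10.45 in naive mice. Of the saline arrays, 2 were above all naive arrays and the third was level with the lower naive ones. *Egr2* at 1 h read 8.45, 8.34 and 7.89 after saline, against 8.11, 8.01 and 8.48 in naive mice, and the groups overlapped. The second *Nr4a3* probe (ILMN_1233670) read 7.16, 7.13 and 7.56 at 1 h after saline, against 7.04, 7.0 and 6.60 in naive mice, with no overlap (3.03% of all probes were higher with none) and a difference of 0.41 (SE 0.19, adjusted p = 1.00). Over the 4 times 1 of 5 choroid plexus markers was called higher in saline than in naive mice. The mean log2 level of the 5 markers in naive mice was 10.18, 10.96, 8.16 and 10.57 at 1, 2, 4 and 8 h. After saline it was 11.07, 10.65, 10.44 and 10.98. The mean log2 level of these markers also differed between drug and saline groups. At 1 h it was 11.07 after saline, 9.25 after ketamine, 10.27 after memantine and 9.76 after PCP. At 2 h these means were 10.65, 9.51, 10.60 and 9.87. The part of choroid plexus in the values of the members was not tested.

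The most widely shared pattern was the course from 1 to 8 h in injected mice. In the 48 injected arrays, saline included, 4 of the 10 probes changed over time in the limma test of all 4 time points, namely those of *Egr2*, *Egr1* and *Egr4* and 1 probe of *Nr4a3*, and all 4 were lower at 8 h than at 1 h. Of all probes, 0.258% were called in that test, 0.203% at 8 h against 1 h. The median difference at 8 h against 1 h was -0.22 over the 10 member probes and 0.00 over all probes.

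*Egr4* in injected mice had a lowest, median and highest level of 10.47, 11.16 and 11.52 at 1 h over 12 arrays. At 2 h these were 10.16, 10.83 and 11.68, at 4 h 10.11, 10.53 and 10.78, and at 8 h 10.21, 10.48 and 10.70. The median thus lay lower at each later time, with the widest range at 2 h. *Egr4* fell by 0.65 at 4 h (SE 0.09) and by 0.66 at 8 h against 1 h (SE 0.09), with adjusted p of 1.61e-05 and 7.22e-06 (limma). The naive arrays read 10.33, 10.34 and 10.68 at 8 h, against 10.45, 10.72 and 10.45 at 1 h, and these ranges overlapped. The naive difference was -0.10 (95% interval -0.43 to 0.24), and 0.00883% of all probes were called in naive mice at 8 h against 1 h.

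*Egr2* in injected mice had a lowest, median and highest level of 7.89, 8.69 and 9.34 at 1 h, and 7.64, 8.07 and 8.94 at 2 h. Those of 4 h were 7.41, 7.72 and 8.09, and those of 8 h were 7.35, 7.61 and 8.39. The median level was lower at each later time. It fell by 0.98 at 4 h, where 0.119% of all probes were called, and by 1.01 at 8 h against 1 h (SE 0.12 each), while the difference at 2 h, -0.54, was not called (adjusted p = 0.203, with 0.0177% of all probes called). In naive mice *Egr2* read 8.11, 8.01 and 8.48 at 1 h, and 7.50, 7.31 and 7.49 at 4 h. On the naive arrays of 8 h it read 8.31, 7.71 and 7.79, and the array at 8.31 is 1 of the 7 with a compressed range. The naive arrays of 4 h were all below those of 1 h, as for 4.1% of all probes, by 0.77 on average (SE 0.23), which was not called (adjusted p = 1.00), and those of 8 h overlapped with those of 1 h.

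*Egr1* in injected mice had a lowest, median and highest level of 13.54, 13.75 and 14.08 at 1 h, and 13.24, 13.57 and 14.03 at 2 h. Those of 4 h were 12.63, 13.16 and 13.48, and those of 8 h were 12.85, 13.18 and 13.40. All injected arrays of 4 and 8 h were below all those of 1 h, as for 0.00442% of all probes. It fell by 0.63 at 4 h and by 0.60 at 8 h against 1 h (SE 0.08 each, adjusted p of 2.20e-05 and 3.22e-05, limma). The difference at 2 h against 1 h was -0.14 (SE 0.08, adjusted p = 1.00). The naive arrays read 13.17, 12.91 and 13.49 at 8 h, against 13.57, 13.48 and 13.62 at 1 h, a difference of -0.37 (95% interval -0.70 to -0.03, adjusted p = 0.591). Only the top naive array of 8 h reached the naive 1 h range.

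**Figure D3:**
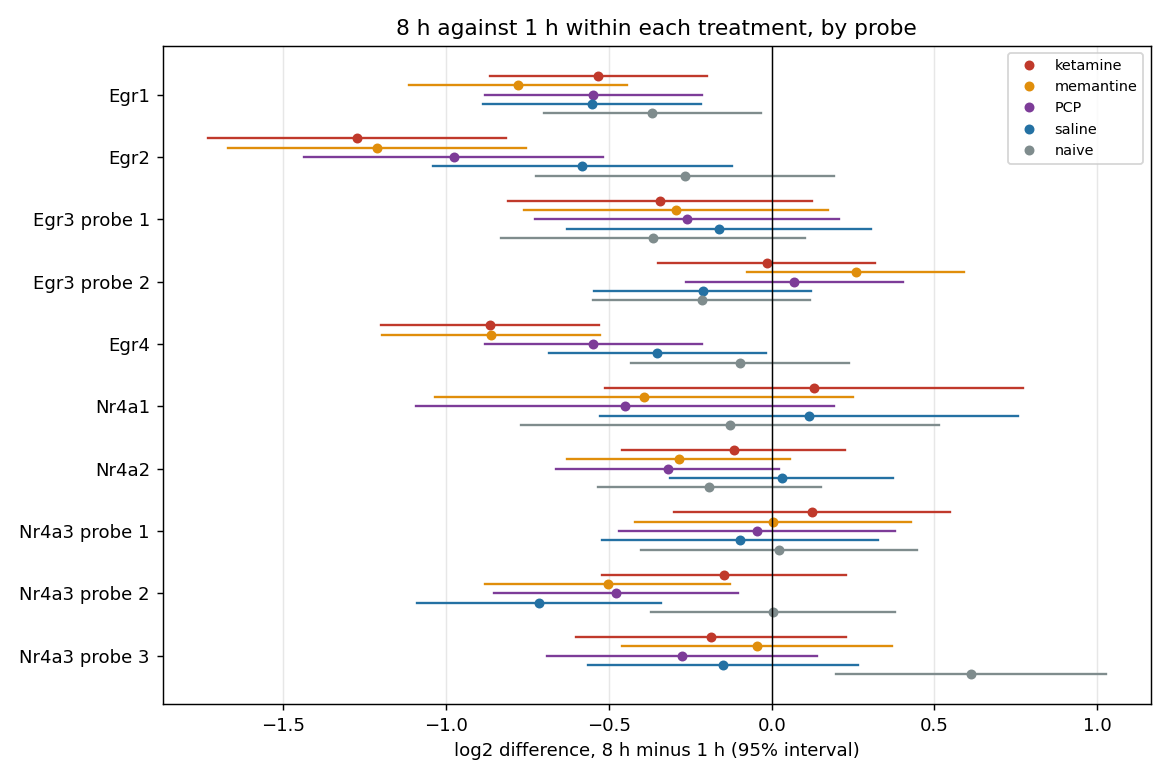
Log2 difference between 8 h and 1 h (x axis) within each treatment for the 10 member probes (y axis, probes of a gene numbered from the brightest). Points are estimates and bars are 95% intervals. For *Egr2* the estimate is -1.27 after ketamine, -1.21 after memantine, -0.98 after PCP, -0.58 after saline and -0.27 in naive mice.

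The same direction was seen within each injected treatment. *Egr2* at 8 h against 1 h differed by -1.27 after ketamine, -1.21 after memantine, -0.98 after PCP and -0.58 after saline (SE 0.23 each). For *Egr4* these differences were -0.86, -0.86, -0.55 and -0.35 (SE 0.17 each). In the test of all 4 times, 2 member probes were called after ketamine (*Egr2* and *Egr4*), 3 after memantine (these and *Egr1*), and none after PCP, after saline or in naive mice. The shares of all probes called in these tests were 0.0221% for ketamine, 0.0839% for memantine, 0.0353% for PCP, 0.0243% for saline and 0.00663% for naive mice. At 8 h against 1 h the *Egr2* and *Egr4* differences were called after ketamine and after memantine, against 0.0133% and 0.0265% of all probes. After ketamine both of these calls were lost without the first or the third array of 1 h or without any of the 3 arrays of 8 h (adjusted p up to 0.353 for *Egr2* and 0.758 for *Egr4*), and that of *Egr4* also with slide as a block (adjusted p = 0.104) and with a normexp offset of 16 (adjusted p = 0.0636). After memantine both were lost without the first or the third array of 1 h, that of *Egr2* also without the first array of 8 h and that of *Egr4* without the third (adjusted p up to 0.317 and 0.345). At 4 h against 1 h after ketamine *Egr2* differed by -1.17 and *Egr4* by -0.84 (adjusted p = 0.0287 and 0.0314, limma). After memantine *Egr2* differed by -1.24 (adjusted p = 0.0124, limma). The shares of all probes called were 0.0221% and 0.0155%. Each of these 3 calls was lost without some single arrays (adjusted p up to 0.588, 0.629 and 0.352), and that of *Egr4* with slide as a block (adjusted p = 0.552). At 4 h against 1 h *Egr4* also fell by 0.82 after PCP (adjusted p = 0.0344, limma), where 0.0287% of all probes were called. In the test of all 4 times the 3 memantine calls held when any 1 of the 60 arrays was left out, but those after ketamine did not. For ketamine the *Egr2* call was lost without any of the 3 arrays of 1 h, the third of 4 h, or the second or the third of 8 h, and the *Egr4* call without any of the 3 arrays of 1 h, the second or the third of 4 h, or the first or the third of 8 h (adjusted p up to 0.624 for both). The call of *Egr4* at 4 h after PCP was lost without the first or second PCP array of 1 h or the second or the third of 4 h (adjusted p up to 0.419).

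Whether the course in injected mice differed from that in naive mice was tested directly, since time after injection and time of day run together in injected mice. No probe on the array was called for a different course (0% of all probes). The difference between 8 h and 1 h was more negative in injected than in naive mice by 0.56 for *Egr4* (95% interval 0.19 to 0.93 more negative), and by 0.74 for *Egr2* (95% interval 0.23 to 1.26 more negative), with an adjusted p of 0.888 for both (limma). For *Egr1* the estimate was -0.24 (95% interval -0.61 to 0.14). For saline alone against naive mice it was -0.25 for *Egr4* and -0.31 for *Egr2* (95% intervals -0.73 to 0.22 and -0.96 to 0.33). These contrasts use the naive arrays of 8 h, of which the one with the highest *Egr2* level (8.31) had a compressed range.

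The slide numbers, which follow the order of listing and are in no label, allowed a check within slides. Of the 10 slides, 8 held injected arrays of both 1 h and 8 h. A slide held 1 or 2 such arrays a time. On several slides they were not all of the same treatment, so these differences mix time with treatment. *Egr1*, *Egr2*, *Egr4* and the second (ILMN_1233670) and the third (ILMN_2666945) *Nr4a3* probes were lower at 8 h on 8 of 8 slides, as were 1.03% of all probes. The median within-slide difference was -0.56 for *Egr1*, -0.93 for *Egr2*, -0.57 for *Egr4*, and -0.45 and -0.30 for these *Nr4a3* probes. *Nr4a2* and the brighter *Egr3* probe were lower on 7 of 8 slides, with medians of -0.21 and -0.27, and *Nr4a1* on 6 of 8 (median -0.20). The second *Egr3* probe was lower on 3 of 8 slides (median 0.03) and the brightest *Nr4a3* probe on 4 of 8 (median 0.01).

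The probes of *Nr4a3*, the nuclear receptor also called NOR-1, did not move together. The second probe (ILMN_1233670) in injected mice had a lowest, median and highest level of 6.32, 6.81 and 7.15 at 8 h, against 6.76, 7.23 and 7.56 at 1 h. It fell by 0.46 at 8 h against 1 h (SE 0.09, adjusted p = 0.00824, limma). This size depended on the background correction, with differences of -0.24 without correction, -0.28 in the authors' log2 values and -0.64 at a normexp offset of 16, all called. Its difference of -0.45 at 4 h against 1 h was called as well, but not with slide as a block (-0.40, adjusted p = 0.0809). The naive arrays of this probe read 6.44, 7.18 and 7.02 at 8 h, against 7.04, 7.0 and 6.60 at 1 h, and overlapped. The brightest probe (ILMN_1257794) was not called in any comparison, and the third (ILMN_2666945) differed by -0.16 at 8 h against 1 h in injected mice (adjusted p = 0.63). In naive mice of 8 h the third probe read 8.02, 6.59 and 6.52, and the array at 8.02 is 1 of the 7 with a compressed range. Different probes can report different transcripts of a gene, and which of them report *Nr4a3* mRNA was not tested.

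**Figure D4:**
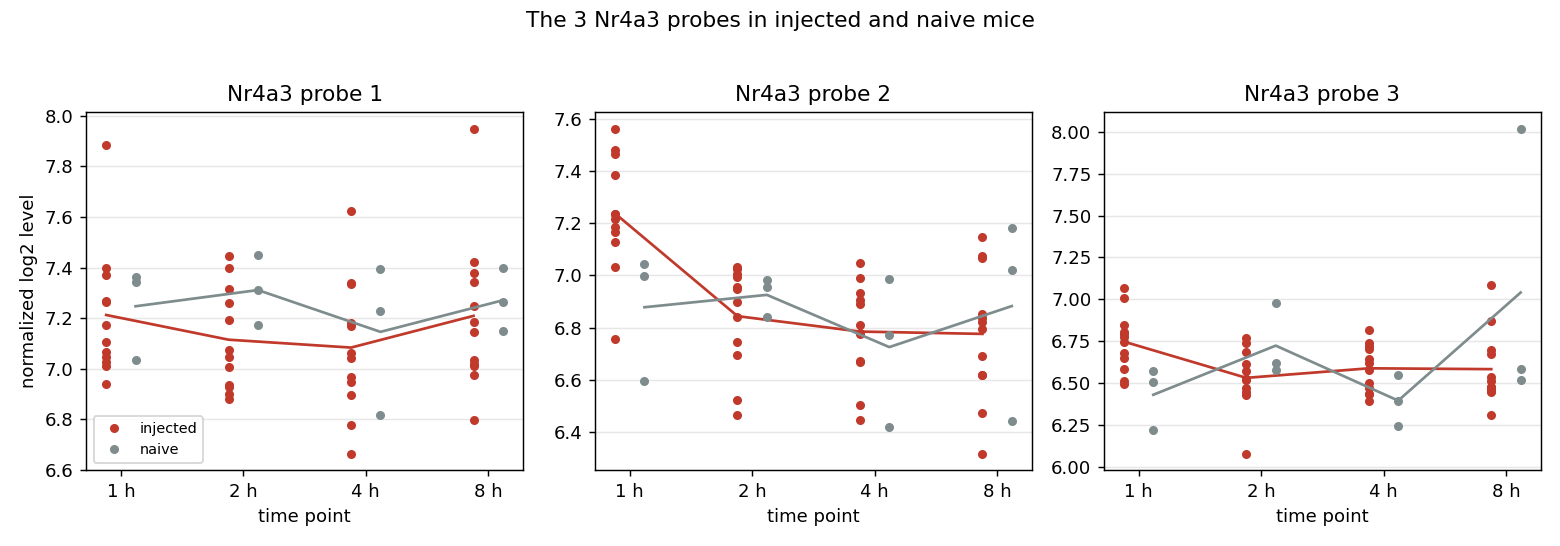
Normalized log2 level (y axis) of the 3 *Nr4a3* probes, numbered from the brightest, in injected and naive mice at 1, 2, 4 and 8 h (x axis). Points are arrays (12 injected and 3 naive at each time) and lines join the means. The second probe goes with a call in injected mice, and the third has a single naive array of 8 h at 8.02.

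The other members are given by the range of their group means. Those of the brighter *Egr3* probe lay between 11.99 and 12.51, and the second *Egr3* probe between 6.95 and 7.38. *Nr4a1*, the receptor also called Nur77, lay between 6.23 and 6.93 near the dim end, and *Nr4a2* between 9.01 and 9.70. The brightest probe of *Nr4a3* lay between 7.0 and 7.43. None of these probes was called in any comparison or course. *Nr4a2* had its highest mean 1 h after PCP, where it read 9.50, 9.69 and 9.91, against 9.60, 9.09 and 9.36 after saline, with overlap.

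**Figure D5:**
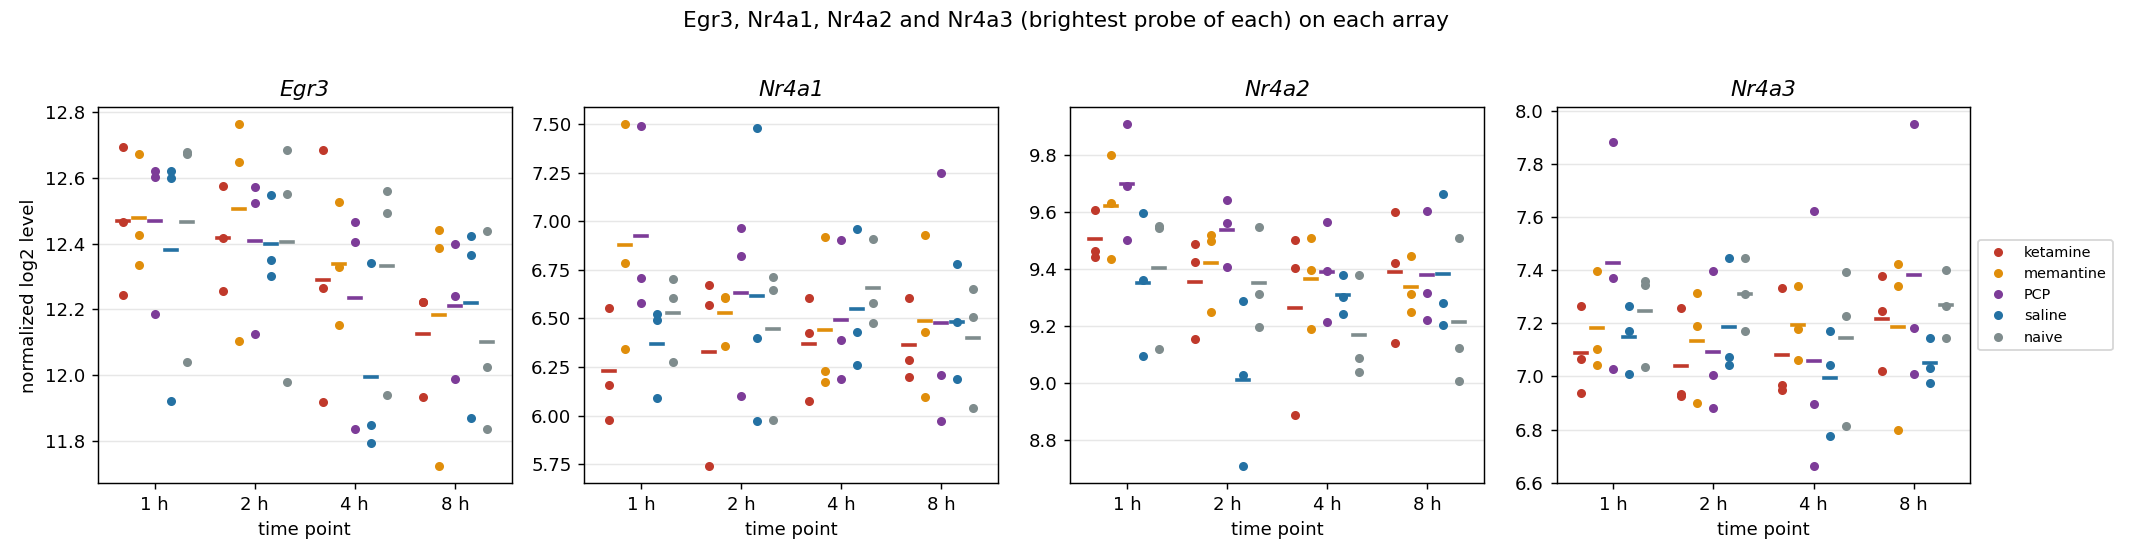
Normalized log2 level (y axis) of the brightest probes of *Egr3*, *Nr4a1*, *Nr4a2* and *Nr4a3* at 1, 2, 4 and 8 h (x axis). Points are arrays, bars are means of 3 arrays, and colours are the 5 treatments. Group means of *Nr4a2* lie between 9.01 and 9.70, with no called difference.

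Across the 20 groups the mean of *Egr4* was highest 2 h after memantine (11.48 ± 0.19, SD), then 1 h after ketamine (11.32 ± 0.17), 1 h after memantine (11.27 ± 0.39) and 1 h after PCP (11.10 ± 0.20). Each of these groups overlapped in its arrays with the next. The next groups were 2 h after ketamine (10.86 ± 0.06) and 1 h after saline (10.83 ± 0.31), and the lowest was 4 h after PCP (10.28 ± 0.20). *Egr2* was highest 1 h after memantine (9.03 ± 0.48), followed by PCP and ketamine of 1 h (8.79 ± 0.29 and 8.79 ± 0.19) and memantine of 2 h (8.77 ± 0.26), all overlapping. Its saline and naive groups of 1 h were close to each other (8.23 ± 0.30 and 8.20 ± 0.25). *Egr1* was highest 1 and 2 h after memantine (13.94 ± 0.17 and 13.88 ± 0.17) and lowest 8 h after saline (13.06 ± 0.09). In each of these orders n was 3 arrays a group.

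Among the other inducible early transcription factors, all 13 listed genes were measured, and 3 were called over time in injected mice, all lower later (*Fos*, *Fosb* and *Junb*, which code for subunits of AP-1). *Fos* fell by 0.75 at 2 h, by 1.53 at 4 h and by 1.69 at 8 h against 1 h (SE 0.13 each). *Fosb* fell by 0.59 at 8 h, and *Junb* by 0.51 at 4 h (SE 0.10 each). *Klf4* was called only at 8 h, where its brightest probe fell by 0.49 (SE 0.10). The median of the 13 at 8 h against 1 h was -0.21. None of the 13 was called in a comparison of a drug with saline, with *Fos* 0.88 higher 2 h after memantine than after saline (SE 0.25, adjusted p = 0.17).

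Of the 10 listed Egr co-repressors and genes described as Egr targets, 1 was called over time in injected mice. This was *Arc*, a synaptic protein, which fell by 0.80 at 2 h, by 1.04 at 4 h and by 0.87 at 8 h against 1 h (SE 0.11 each). The others were not called, among them *Nab1* and *Nab2*, which code for the co-repressors that bind Egr proteins, and the list's median at 8 h against 1 h was -0.01. None was called against saline. At 2 h *Arc* was 0.78 higher after memantine than after saline (SE 0.22, adjusted p = 0.167). None of the 10 measured factors and kinases upstream of these genes, out of 13 listed, and none of the 3 retinoid X receptor genes, whose proteins pair with Nr4a1 and Nr4a2, was called against saline or over time in injected mice.

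The genes whose levels were most like each member over the 60 arrays were found by Pearson correlation among 11955 genes, as a description that mixes differences between groups, slides and arrays. *Egr1* was nearest to *Fos* (r = 0.828), *Dusp1* (0.774) and *Ppp1r3c* (0.693). *Egr2* was nearest to *Dusp1* (0.836), *Fos* (0.798) and *Arc* (0.752). *Egr4* was nearest to *Gadd45g* (0.854), *Fos* (0.761) and *Rgcc* (0.757). *Egr3* was nearest to other genes, *Cep170* (0.873), *Fcho2* (0.850) and *Irf2* (0.840), none of them in the early gene list. The nearest genes of *Nr4a1*, *Nr4a2* and the brightest *Nr4a3* probe reached only 0.600 (*Klf10*), 0.560 (*Apold1*) and 0.619 (*Mob1a*). The second *Nr4a3* probe (ILMN_1233670) was nearest to *Fos* (0.530) and the third (ILMN_2666945) to *Timp1* (0.683).

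After the group means were taken out, the levels of 4 of the 21 pairs of members still varied together over the 60 arrays. For *Egr1* and *Egr2* Pearson's r was 0.549 and Spearman's rho 0.578, with permutation p of 0.00039 and 0.00013 and adjusted p of 0.00410 and 0.00137 over the 21 pairs (two-sided, 100000 permutations of arrays within groups). For *Egr1* and *Egr3* r was 0.582 and rho 0.580 (adjusted permutation p = 0.00336 and 0.00137). For *Egr2* and *Egr3* r was 0.504 and rho 0.480 (adjusted permutation p = 0.00532 and 0.0118), and for *Egr1* and *Egr4* r was 0.452 and rho 0.437 (adjusted permutation p = 0.0244 and 0.0319). Without the 2 arrays farthest from the median these 4 values of r were 0.532, 0.555, 0.501 and 0.442, and with slide taken out as well they were 0.516, 0.470, 0.444 and 0.502. *Egr2* and *Egr4* had an r of 0.232 (adjusted permutation p = 0.379), which was 0.550 with slide taken out. No pair with an Nr4a gene passed by Pearson's r. By Spearman's rho *Nr4a1* passed with *Egr2* and with *Egr3* (adjusted permutation p = 0.0319 and 0.0379), but with slide taken out these r were 0.033 and -0.31.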

How the data were processed

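Hippocampal RNA of 2 mice per array was hybridised to 60 arrays. Each array's label named its treatment, time and replicate but not its slide. The 10 slide numbers follow the order in which the samples are listed, with 6 arrays a slide. A slide here is thus a block of 6 arrays in that order. Of the per-sample values, 0 columns were left unused. The intensities the authors deposited are BeadStudio's average signal per probe on a linear scale, neither corrected for background nor scaled. The authors also deposited log2 values, which they background subtracted and quantile normalized with BeadArray, and these served as an alternative. The build behind the array's probe annotation was not given in the sources used here.

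The intensities were corrected by normexp (offset 50), quantile normalized and log2 transformed (limma 3.58.1, R 4.3.3). A bead count per probe was not used, so the number of arrays limits the precision. Moderated tests ran on all 45281 probes with Benjamini-Hochberg adjustment over all of them in each comparison, and a probe was called at an adjusted p under 0.05. Drug against saline, and saline against naive, over 4 times used the 24 arrays of both treatments. Single times, pairs of drugs and courses within a treatment were contrasts of 1 fit to all 60 arrays, and the course of injected mice used the 48 injected arrays. The scripts were tested on simulated data. Probes were named from the platform annotation (34885 with 1 symbol, 18 with several, 10378 with none). Promoter windows came from RefSeq (GRCm38.p6), and those of *Egr2*, *Egr4*, *Nr4a1*, *Nr4a2* and *Nr4a3* were used here.

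The members, gene lists and tests were chosen with earlier results of these data known. The genes named are all probes of the members, the 3 genes most like each member, and list genes that were called, with those near a call in the drug comparisons chosen after their values were seen. Alternatives covered the background correction, offset, the authors' log2 values, the brighter 50% of probes, slide and replicate blocks, the variance model, the 7 arrays of compressed range and leaving out each array. Replicate numbers did not pair arrays, since the deviations of arrays with the same number correlated at -0.01 on average, against 0.19 for arrays of the same slide. The study's striatum arrays, sequencing and PCR were not used here.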

Additional observations from a re-analysis of the deposited data

How the results depend on the processing

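The 4 calls over time in injected mice (*Egr1*, *Egr2*, *Egr4* and the second *Nr4a3* probe) held in every alternative in which the probe was tested, the *Nr4a3* probe being too dim to enter the fit on the brighter 50% of probes, and when any 1 array was left out. The count of member probes called in the comparisons of a drug with saline at single times was 1. It was 0 with slide as a block, where *Egr4* 2 h after memantine was 0.91 above saline (adjusted p = 0.0743, limma), and it lay between 1 and 2 when 1 array was left out, with *Egr2* as the second call. The count for memantine against saline over 4 times was 0, and 1 with all 60 arrays in the fit (*Egr4*, adjusted p = 0.0159). The cause of these changes was not tested. Among the courses within 1 treatment, the *Egr4* call after ketamine had an adjusted p of 0.260 with slide as a block and 0.0508 with a normexp offset of 16, and that of *Egr4* 8 h against 1 h after memantine was 0.215 without the 7 arrays of compressed range. The *Egr4* call at 4 h after PCP was lost with the offset of 16, with slide as a block and without these arrays (adjusted p = 0.0602, 0.707 and 1.00). None of the log2 differences followed through these alternatives changed direction.

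With the replicate number as a block, the counts of member probes stayed at 1 for drug against saline at single times and at 4 for the course of injected mice, and *Egr4* 2 h after memantine had an adjusted p of 0.00092. The replicate block changed no call of a member. Pools of 2 mice and 3 arrays a group limit the precision. The SE of a single-time difference was 0.32 for the dim *Nr4a1* probe, against 0.17 for *Egr4*.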
